A study of Mus musculus with 12 samples.

Results

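Srf and Yap contractile target genes were read as a set of 10, chosen by name with earlier results of these data known. The genes are actin-dependent targets of Srf with its myocardin-type cofactors, of Yap, or of both. They were *Ctgf*, *Cyr61*, *Ankrd1*, *Acta2*, *Tagln*, *Cnn1*, *Cnn2*, *Tpm1*, *Tpm2* and *Myl9*, and all 10 were on the array, with 16 of its 55681 probes and 10 of its 34836 gene names. All 16 probes passed the filter on dim signal. RNA came from 12 arrays of mouse ES cells, 3 for each of 4 groups, and every group carried Gata6GR, a fusion of Gata6 with the ligand-binding domain of the human glucocorticoid receptor that enters the nucleus when dexamethasone (Dex) is added. The groups were *Sox7* (+/−) ES cells at day 4 without Dex, *Sox7* (+/−) XEN-like cells at day 4 with Dex, *Sox7* (−/−) ES cells at day 4 without Dex and *Sox7* (−/−) XEN-like cells at day 4 with Dex. XEN-like cells are cells with the features of extraembryonic endoderm, the lineage that lines the yolk sacs. The cells descended from the EB3 ES line, were kept with LIF on gelatin, and had lost the *Sox7* coding sequence from a single allele in the (+/−) line. The (−/−) line was selected from the (+/−) line with a high dose of puromycin. Each genotype was 1 clone, so genotype and clone cannot be told apart, and the control was heterozygous, not wild type.

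Srf is a DNA-binding factor that works with 2 kinds of partner. The myocardin-type cofactors Mkl1, Mkl2 and Myocd carry it to genes of the contractile apparatus, and Mkl1 and Mkl2 are held in the cytoplasm by monomeric actin, so that assembly of actin filaments releases them. Yap1 and its relative Wwtr1 (Taz) are cofactors of the Tead factors and are kept out of the nucleus by the kinases of the Hippo pathway, which respond to cell shape, contact and tension. *Ctgf*, *Cyr61* and *Ankrd1* are the usual readouts of Yap, *Acta2*, *Tagln*, *Cnn1* and *Myl9* are best known from smooth muscle, and many of the 10 genes respond to both branches. In the blastocyst, Yap with Tead4 is known for its work in the outer cells that form the trophectoderm.

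To show which members carry a recognisable site near their start, the 250 bases before and 50 bases after each RefSeq start (GRCm38.p6) were searched on both strands for the CArG box, the site bound by Srf, and for GGAATG, the core of the Tead site. Windows were found for 8 of the 10 members, those of *Ctgf* and *Tagln* not among them. A CArG box lay in 2 of the 8 windows, against 1.63% of all 32851 promoter windows, and a Tead core in 4 of the 8, against 14.7% of all. No match overlapped another. A match describes letters only and is not evidence of binding. Only exact matches were counted, for the CArG box CC and GG with nothing but A or T between. Sites with a changed letter were not searched for, so a window without a match may still hold a site. Shown are the 220 bases before the start of both members with a CArG box and of both Yap readouts with a Tead core, 5′ to 3′ on the strand of the gene, with the matches in capitals:
Myl9, chr2:156775244-156775463, plus strand: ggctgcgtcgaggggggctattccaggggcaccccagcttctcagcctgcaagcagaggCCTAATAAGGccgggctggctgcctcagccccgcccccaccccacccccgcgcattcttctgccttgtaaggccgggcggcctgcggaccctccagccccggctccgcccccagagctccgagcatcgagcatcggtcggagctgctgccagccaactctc
Cnn2, chr10:79988380-79988599, plus strand: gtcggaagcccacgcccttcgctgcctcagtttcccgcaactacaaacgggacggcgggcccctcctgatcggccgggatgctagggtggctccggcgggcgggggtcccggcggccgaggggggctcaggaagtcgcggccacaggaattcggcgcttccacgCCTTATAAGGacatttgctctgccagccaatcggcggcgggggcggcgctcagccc
Ankrd1, chr19:36119845-36120064, minus strand: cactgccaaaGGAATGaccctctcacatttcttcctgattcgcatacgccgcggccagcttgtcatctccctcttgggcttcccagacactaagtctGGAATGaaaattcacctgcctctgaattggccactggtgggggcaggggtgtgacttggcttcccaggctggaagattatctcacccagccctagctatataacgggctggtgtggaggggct
Cyr61, chr3:145649986-145650205, minus strand: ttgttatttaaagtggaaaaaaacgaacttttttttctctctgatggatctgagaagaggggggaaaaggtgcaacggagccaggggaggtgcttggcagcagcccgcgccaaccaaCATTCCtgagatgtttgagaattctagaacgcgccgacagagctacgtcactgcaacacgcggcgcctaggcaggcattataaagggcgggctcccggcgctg

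The CArG box began 161 bases upstream of the start in *Myl9* and 56 bases upstream in *Cnn2*. The Tead cores began 210 and 123 bases upstream in *Ankrd1* and 103 bases upstream in *Cyr61*, which RefSeq calls Ccn1. The other cores were in *Acta2*, 146 bases upstream, and in *Tpm1*, 56 bases upstream.

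Per array the 75th percentile of processed signal ranged from 252.3 to 415.9 intensity units. The share of spots bright enough to stand well above background ranged from 41.7% to 52.3%, and no spot was saturated. Levels are given as a percentage of the 75th percentile of the same array, each gene by its brightest probe, and are not compared between probes. For lists of markers levels were also summed over genes, and such a sum mostly follows the brightest probes of its list. *Sox7* was at 224% ± 5.42 (SD, n = 3) in *Sox7* (+/−) ES cells and at 558% ± 113 in the XEN-like cells of that genotype, and was not well above background on any of the 6 *Sox7* (−/−) arrays. Of the extraembryonic endoderm markers *Gata4*, *Gata6*, *Sox17*, *Foxa2* and *Pdgfra*, 4 of 5 rose with Dex in each genotype, and all 5 ES cell markers fell. *Sox7* (+/−) XEN-like replicate 3 stood apart from its group for several members, as given below. The sources do not say whether replicates were separate cultures, and the source labels of all 3 *Sox7* (+/−) ES arrays carry the same replicate number, so p-values measure only the spread between these arrays, which may be technical. RNA of a whole culture was measured, so fewer expressing cells and less RNA per cell cannot be told apart.

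The first question was how the set changed when *Sox7* (+/−) ES cells became XEN-like cells. The set did not move as a block: *Ctgf*, *Ankrd1* and *Myl9* rose, while *Acta2*, *Tagln*, *Cnn1*, *Tpm1* and *Tpm2* fell. Calls needed a change of more than 2-fold and, in limma, an adjusted p under 0.05 (Benjamini-Hochberg, over all 25899 tested probes). By this rule 3 of the 10 members rose, where 11.0% of all tested probes did, and 5 fell, where 14.0% did. Their median log2 difference was −0.43, beside 0.16 over all tested probes.

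*Ctgf*, a secreted matricellular protein of the Ccn family, read 1927, 1888 and 1940.0% in the ES cells and 15542, 15299 and 5701% in the XEN-like cells. All 3 XEN-like arrays were above the ES arrays, and replicate 3 was far below the other two. The log2 difference was 2.53 ± 0.31 (SE), or 5.77-fold (adjusted p = 4.84e-05), and 3.01 without replicate 3. *Myl9*, a regulatory light chain of non-muscle and smooth muscle myosin, read 355, 373 and 379% before and 2039, 1928 and 2639.7% after Dex. That was a rise of 2.56 ± 0.13 (5.91-fold, adjusted p = 4.66e-08), and the groups did not overlap. *Ankrd1*, a nuclear and sarcomeric ankyrin repeat protein, read 81.4, 100.3 and 93.8% in ES cells and 467, 297 and 105% in XEN-like cells. Its XEN-like arrays were thus widely spread, with replicate 3 close to the ES cells. The log2 difference of 1.42 ± 0.49 (adjusted p = 0.0282) became 2.02 without replicate 3 and 0.95 without replicate 1, and the call was lost when any of the ES arrays or XEN-like replicate 1 or 2 was left out (adjusted p from 0.0534 to 0.102). Replicate 3 was the lowest of the 3 XEN-like arrays for 7 of the 10 members and for 12 of 18 other Yap targets, tested or not, but the highest for *Myl9* and *Tpm1*. How often it was the lowest over all tested probes was not counted. Among the largest rises of the other Yap targets, *F3* (tissue factor) read 20121, 19218 and 6954% and *Ccdc80* 263, 207 and 106% in these arrays. The part of this array's other properties in these values was not tested.

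The genes best known from smooth muscle went the other way. *Acta2*, smooth muscle actin, read 1164, 1339.5 and 1094% in *Sox7* (+/−) ES cells and 168, 97.6 and 62.5% in XEN-like cells, the mean of 10 spots of the same probe on each array. Every XEN-like array was far below every ES array. *Acta2* fell by 3.57 on the log2 scale (SE 0.29, adjusted p = 1.97e-06). *Tagln*, an actin-bundling protein also called SM22, read 5269.6, 6048 and 5794% before and 771, 514 and 469% after Dex, a change of −3.32 ± 0.17 (adjusted p = 7.59e-08). *Cnn1*, a calponin that binds actin and slows myosin, read 425, 455 and 448% before and 82.4, 54.6 and 58.3% after, a change of −2.79 ± 0.16 (adjusted p = 1.5e-07). These 3 genes were therefore all high on the 3 ES arrays and lower, without overlap, on the XEN-like arrays.

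Of the tropomyosins, which run along the actin filament, *Tpm2* fell from 625, 659 and 585% to 165, 162 and 126% (−2.05 ± 0.11, adjusted p = 1.3e-07). *Tpm1* fell from 2068, 2259 and 2247% to 953, 1022 and 1098% by its brightest probe (−1.10 ± 0.07, adjusted p = 5.8e-07), and its other probes differed from this, as described below. *Cyr61*, a Ccn family relative of *Ctgf*, read 609, 628 and 665% before and 871, 759 and 719% after Dex. *Cnn2*, the calponin of non-muscle cells, read 812, 872 and 755% before and 989.6, 949 and 935% after. In both genes the arrays did not overlap, but the differences of 0.30 ± 0.10 and 0.24 ± 0.08 (adjusted p = 0.0256 and 0.0187) were below 2-fold, and they turned to −0.19 and −0.25 when arrays were scaled by spike-in controls, which also moved the median of all tested probes from 0.16 to −0.34. With that scaling 18.5% of all calls were rises, against 44.1% with the 75th percentile. No overlap between the arrays of the groups was seen for 10 of 10 members, where 67.7% of all tested probes did the same.

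**Figure D1:**
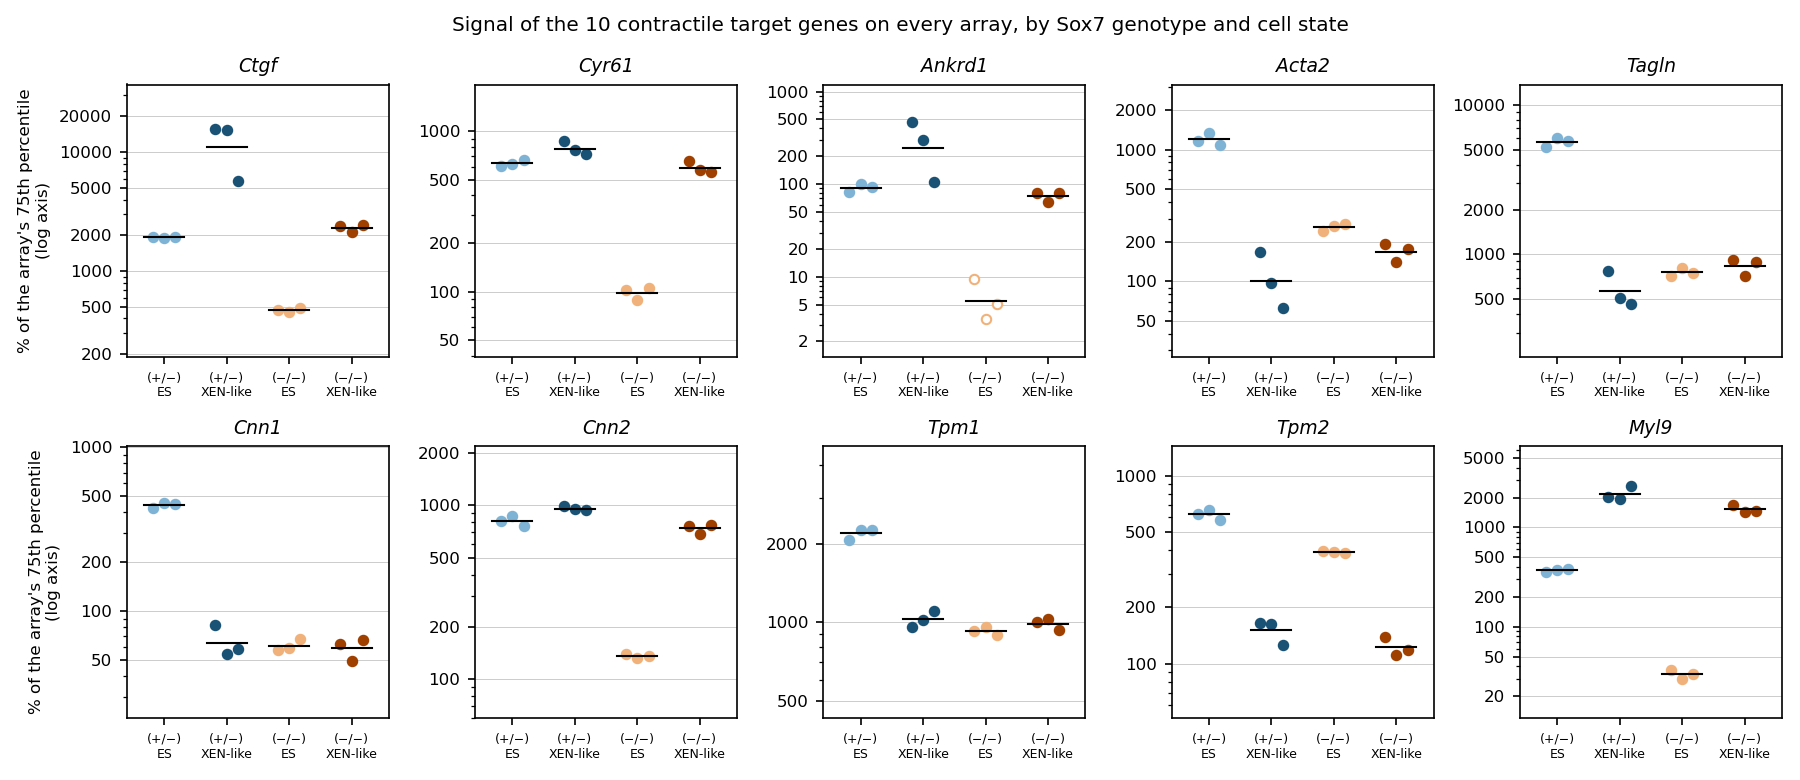
Signal of each of the 10 genes, read by its brightest probe, on the 12 arrays as a percentage of the array's 75th percentile, on log axes that differ between panels. Points are arrays in replicate order, bars are means on the log scale (n = 3), and open points are arrays of a group with none well above background. *Acta2*, *Tagln*, *Cnn1*, *Tpm1* and *Tpm2* are highest in *Sox7* (+/−) ES cells, and 6 of the 10 genes have their lowest mean in *Sox7* (−/−) ES cells.

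In *Sox7* (−/−) cells the same treatment was followed mostly by rises. *Ctgf*, *Cyr61*, *Ankrd1*, *Cnn2* and *Myl9* rose and *Tpm2* fell, while *Acta2*, *Tagln*, *Cnn1* and *Tpm1* were not called. Thus 5 members rose, where 14.6% of all tested probes did, and 1 fell, where 14.2% did. The median over the members was 1.22, beside 0.07 over all tested probes. This response lay partly across slides: the 3 ES arrays and 1 XEN-like array were on slide 1, and 2 XEN-like arrays on slide 2. The *Sox7* (+/−) response lay wholly on slide 2. With the slide as a block the same members were called, with rises from 2.35 for *Ctgf* to 5.66 for *Myl9* and −1.52 for *Tpm2*.

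*Myl9* had the largest difference of the set, from 36.5, 29.9 and 33.6% in the ES cells to 1684, 1423 and 1475% in the XEN-like cells (5.52 ± 0.13, 45.9-fold, adjusted p = 1.68e-10). The XEN-like arrays were all far above the ES arrays. *Ankrd1* read 9.37, 3.49 and 5.14% in the ES cells, not well above background on any of the 3 arrays, and 81.1, 64.6 and 79.4% in the XEN-like cells. Its rise was at least 8.01-fold (adjusted p = 6.43e-05), the dim arrays being set to the lowest signal that counted as well above background. *Cyr61* went from 103, 88.2 and 105% to 652, 569.7 and 556% (2.59 ± 0.10, adjusted p = 7.74e-09), and *Cnn2* from 139.6, 132 and 136% to 764, 685 and 772% (2.44 ± 0.08, adjusted p = 1.4e-09). These 2 genes rose by similar amounts and their groups were far apart. *Ctgf* went from 469, 454 and 487% to 2391, 2154 and 2439% (2.31 ± 0.31, adjusted p = 7.82e-05).

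*Tpm2* was the single member that fell, from 397, 395 and 389% to 138, 112 and 117% (−1.69 ± 0.11, adjusted p = 4.33e-07). *Acta2* read 243, 266 and 271% before and 192, 140.3 and 175% after Dex. All 3 *Acta2* arrays were lower after Dex, but the difference of −0.63 ± 0.29 did not pass the test (adjusted p = 0.0751). *Tagln* read 714, 809 and 754% before and 925, 714 and 888% after (0.14, 95% interval −0.24 to 0.53). *Cnn1* read 57.6, 59.7 and 67.1% before and 62.6, 49.5 and 67.0% after (−0.05, interval −0.41 to 0.30), and *Tpm1* 921, 955 and 895% before and 999, 1025 and 930.5% after (0.09, interval −0.08 to 0.26). The arrays of both states overlapped for *Tagln*, *Cnn1* and *Tpm1*. No overlap was seen for 7 of 10 members, against 73.7% of all tested probes.

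**Figure D2:**
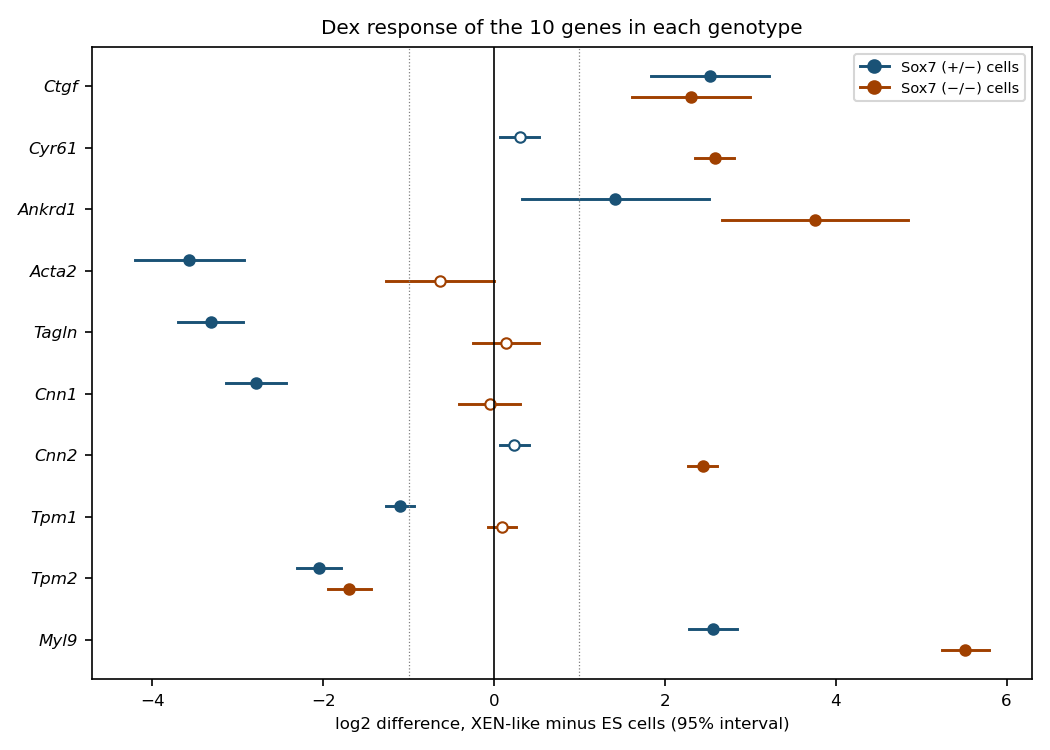
Log2 difference between XEN-like and ES cells (x axis) for each of the 10 genes (y axis) in *Sox7* (+/−) and *Sox7* (−/−) cells, with 95% intervals from limma (3 arrays a group). Filled points were called (adjusted p under 0.05 and over 2-fold, dotted lines), open points were not: *Acta2*, *Tagln*, *Cnn1* and *Tpm1* fell in *Sox7* (+/−) cells and were not called in *Sox7* (−/−) cells.

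Whether these responses differed was tested directly, as the response of *Sox7* (−/−) cells minus that of *Sox7* (+/−) cells. The difference was positive and called for 8 of the 10 members, where 6.63% of all tested probes were called in that direction, and negative and called for none, where 3.17% were. The median was 2.31, beside −0.09 over all tested probes. The difference was 3.46 ± 0.24 for *Tagln* (adjusted p = 6.4e-06), 2.94 ± 0.40 for *Acta2* (adjusted p = 0.000563) and 2.74 ± 0.22 for *Cnn1* (adjusted p = 1.83e-05), genes that fell in *Sox7* (+/−) cells. It was 2.96 ± 0.18 for *Myl9* (adjusted p = 2.19e-06), 2.29 ± 0.14 for *Cyr61* (adjusted p = 3.27e-06) and 2.20 ± 0.11 for *Cnn2* (adjusted p = 6.42e-07), genes that rose more in *Sox7* (−/−) cells. For *Tpm1* it was 1.19 ± 0.11 by its brightest probe (adjusted p = 3.19e-05), and its other probes are described below. For *Ankrd1* it was 2.34 ± 0.69 (adjusted p = 0.0312), and this call was lost in 7 of the 12 fits that left out an array (adjusted p from 0.054 to 0.0724), with normexp background correction (0.61, adjusted p = 0.361) and with the slide as a block (adjusted p = 0.0949), and the value became 1.73 without *Sox7* (+/−) XEN-like replicate 3. *Ctgf* (−0.22, interval −1.20 to 0.75, adjusted p = 0.744) and *Tpm2* (0.36, interval −0.0022 to 0.72, adjusted p = 0.13) did not pass the test. Without *Sox7* (+/−) XEN-like replicate 3 the value for *Ctgf* was −0.70 (adjusted p = 0.00041), past the p threshold but below 2-fold and opposite in sign to the called members. The size for *Ankrd1* rests on *Sox7* (−/−) ES values below background. With spike-in scaling 89.8% of all calls in this comparison were positive, against 67.7% with the 75th percentile, and the median of all tested probes was 0.31, while the number of members called stayed at 8. Of the marker lists, 5 of 5 tested visceral endoderm markers were called higher (median 3.61). The 3 tested genes of the trophectoderm list, the keratins *Krt8* and *Krt18* and the dim *Cdx2*, were also called higher (median 3.02). Of the parietal endoderm markers 1 of 6 was called higher. The ES cell and fibroblast lists each had 1 marker called higher and 1 lower. No extraembryonic endoderm, smooth muscle or cardiac muscle marker was called. The part of these markers in the member values was not tested.

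The difference of responses is made of the same arrays as the comparison of ES cells with each other, so the values of both states were compared between genotypes. In ES cells, before any Dex, all 10 members had the lower level in *Sox7* (−/−) cells at an adjusted p under 0.05, where 16.9% of all tested probes were lower by that measure. With the 2-fold threshold 9 of 10 were called lower, where 6.66% of all tested probes were, and none higher, where 1.95% were. The median was −2.63, beside 0.10 over all tested probes. The arrays of the genotypes did not overlap for 10 of 10 members, against 65.3% of all tested probes.

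Among the Yap readouts, *Ankrd1* was at least 9.82-fold lower in *Sox7* (−/−) ES cells (adjusted p = 0.000146), not being well above background there. *Cyr61* differed by −2.69 ± 0.10 on the log2 scale (6.43-fold, adjusted p = 5.86e-08) and *Ctgf* by −2.03 ± 0.31 (4.08-fold, adjusted p = 0.000587). Among the contractile proteins, *Myl9* had the largest difference, −3.47 ± 0.13 (11.1-fold, adjusted p = 4.26e-08). *Tagln* differed by −2.91 ± 0.17 (7.51-fold, adjusted p = 1.19e-06), *Cnn1* by −2.85 ± 0.16 (7.21-fold, adjusted p = 7.73e-07) and *Cnn2* by −2.58 ± 0.08 (5.97-fold, adjusted p = 1.27e-08). *Acta2* differed by −2.20 ± 0.29 (4.60-fold, adjusted p = 0.000221) and *Tpm1* by −1.25 ± 0.07 (2.37-fold, adjusted p = 1.29e-06). *Tpm2* differed by −0.66 ± 0.11 (adjusted p = 0.00124), below 2-fold.

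In this comparison slide and genotype lay close together: the 3 *Sox7* (−/−) ES arrays were on slide 1 and the 3 *Sox7* (+/−) ES arrays on slide 2, and no slide held both. The slides were linked only by *Sox7* (−/−) XEN-like cells, with replicate 1 on slide 1 and replicates 2 and 3 on slide 2. In a fit with slide as a block, 8 of the 10 members were called lower, with differences between −4.23 for *Ankrd1* and −1.28 for *Tpm1*. *Tpm2* (−0.93) stayed below 2-fold, and *Ctgf* was no longer called (−2.09, adjusted p = 0.0503). Markers of other states moved with the genotype as well. The summed level of 5 ES cell markers was 19561 to 20688% in *Sox7* (+/−) ES cells and 40754 to 44006% in *Sox7* (−/−) ES cells. The summed level of 4 genes listed as trophectoderm markers was 32016 to 34558% in *Sox7* (+/−) and 4841 to 5269% in *Sox7* (−/−) ES cells. Nearly all of it was signal of the keratins *Krt18* (−3.01 on the log2 scale) and *Krt8* (−2.24), so it is not a measure of trophectoderm. The same sum was 20212 to 21651% in *Sox7* (+/−) and 20316 to 22026% in *Sox7* (−/−) XEN-like cells. *Cdx2* read 31.7, 37.8 and 42.7% against 13.6, 7.94 and 5.80%, and *Elf5* did not reach well above background on any array. The 6 visceral endoderm markers summed to 7428 to 7666% against 3799 to 4433%, and the 6 parietal endoderm markers to 116488 to 120172% against 96981 to 105310%. Gene by gene, 3 of 5 tested visceral endoderm markers were called lower in *Sox7* (−/−) ES cells and none higher (median −1.11). Of the 6 parietal endoderm markers 3 were called lower and none higher (median −0.93). The 5 smooth muscle markers other than the members summed to 837 to 882% against 690.01 to 796%, and *Myh11*, the myosin that defines smooth muscle, was not well above background on any array. The 5 fibroblast markers summed to 375 to 419% against 438 to 465%, and the 6 cardiac muscle markers to 255 to 290.2% against 118 to 139%. The part of slide and of these other markers in the lower member levels was not tested further.

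In XEN-like cells, after 4 days of Dex, most members were within 2-fold between the genotypes. *Ctgf* and *Ankrd1* were lower in *Sox7* (−/−) cells, so that 2 of 10 members were called lower, where 3.64% of all tested probes were, and none higher, where 3.86% were. The median was −0.34, beside 0.00083 over all tested probes. *Ctgf*, with 15542, 15299 and 5701% against 2391, 2154 and 2439%, differed by −2.25 ± 0.31 (4.76-fold, adjusted p = 0.000489). *Ankrd1*, with 467, 297 and 105% against 81.1, 64.6 and 79.4%, differed by −1.71 ± 0.49 (adjusted p = 0.0228), and this became −2.32 without *Sox7* (+/−) XEN-like replicate 3. Its call was lost without *Sox7* (+/−) replicate 1 or 2 or *Sox7* (−/−) replicate 1 or 2 (adjusted p from 0.051 to 0.0688), and on slide 2 alone, which held 2 of the *Sox7* (−/−) arrays, the difference was −1.77 (adjusted p = 0.0641). For both genes the highest *Sox7* (−/−) array was still below the lowest *Sox7* (+/−) array. Other markers differed between these groups: 5 of 5 tested visceral endoderm markers were higher in *Sox7* (−/−) cells, the 6 on the array summing to 21742 to 23520% against 6288 to 6380%, and the 5 ES cell markers summed to 1115 to 1444% against 339 to 474%. Of the 5 ES cell markers 2 were called higher and none lower, but 1 was lower at an adjusted p under 0.05. Of the 6 parietal endoderm markers none was called, and 5 were lower at an adjusted p under 0.05 (median −0.50). The part of all these markers in the member values was not tested.

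The remaining 8 members were within 2-fold of each other in the XEN-like cells of both genotypes. *Cyr61* (−0.40 ± 0.10), *Cnn2* (−0.37 ± 0.08) and *Myl9* (−0.52 ± 0.13) had adjusted p of 0.0135, 0.00435 and 0.0106, and *Cyr61* and *Cnn2* lost their negative sign in the authors' unscaled table. *Tagln* differed by 0.55 ± 0.17 (adjusted p = 0.0323) and *Acta2* by 0.73 ± 0.29 (adjusted p = 0.0714), and *Acta2* reached 1.10 (adjusted p = 0.0032) when *Sox7* (+/−) replicate 1, the highest array of its group, was left out. The intervals were −0.47 to 0.24 for *Cnn1*, −0.22 to 0.11 for *Tpm1* and −0.56 to −0.05 for *Tpm2*. With spike-in scaling 76.6% of all calls between the XEN-like groups were higher in *Sox7* (−/−) cells, and 89.9% in the authors' unscaled values, against 51.5% with the 75th percentile. The arrays did not overlap for 5 of 10 members, against 46.3% of all tested probes.

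**Figure D3:**
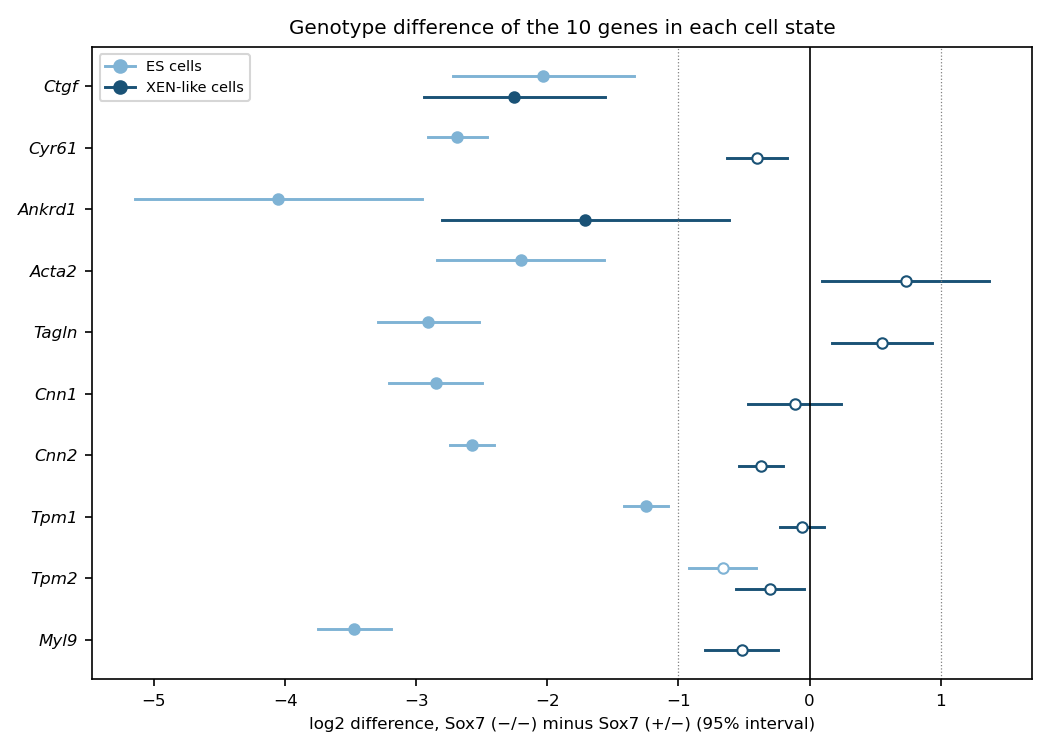
Log2 difference between *Sox7* (−/−) and *Sox7* (+/−) cells (x axis) for each of the 10 genes (y axis) in ES cells and in XEN-like cells, with 95% intervals from limma (3 arrays a group). Filled points were called and open points were not: 9 of 10 genes were called lower in *Sox7* (−/−) ES cells, and *Ctgf* and *Ankrd1* in *Sox7* (−/−) XEN-like cells.

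The order of the 4 groups differed between members. *Tagln* was at 5704% ± 397 (SD, n = 3) in *Sox7* (+/−) ES cells, and the other 3 groups, at 842% ± 113, 759% ± 47.3 and 585% ± 163, overlapped with their neighbours. *Cnn1* had the same shape, with 443% ± 15.5 in *Sox7* (+/−) ES cells and means of 59.7 to 65.1% in the 3 other groups, all overlapping. The arrays of *Tpm1* were at 2068 to 2259% in *Sox7* (+/−) ES cells and between 895 and 1098% in the other groups. These 3 genes thus stood high in a single group, which for *Tpm1* held only for its brightest probe and the probe overlapping it. The other *Tpm1* probes, described below, had other orders of the groups. *Acta2* was also highest there, at 1199% ± 126, followed by *Sox7* (−/−) ES cells at 260.0% ± 15.0, with the XEN-like groups at 169% ± 26.2 and 109% ± 53.6 overlapping. *Tpm2* followed the cell state first, with ES cells at 623% ± 37.3 and 394% ± 4.19 and XEN-like cells at 151% ± 21.6 and 122% ± 13.7, where the XEN-like groups overlapped.

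*Cyr61* and *Cnn2* stood low in a single group. *Cnn2* was at 136% ± 3.70 in *Sox7* (−/−) ES cells and between 741 and 958% in the 3 other groups, where *Sox7* (−/−) XEN-like and *Sox7* (+/−) ES arrays overlapped. *Cyr61* was at 98.8% ± 9.16 in *Sox7* (−/−) ES cells and between 593 and 783% in the others, with the same overlap. *Myl9* fell into 4 separate steps, at 33.3% ± 3.31, 369% ± 12.2, 1527% ± 138 and 2202% ± 383, from *Sox7* (−/−) ES through *Sox7* (+/−) ES and *Sox7* (−/−) XEN-like to *Sox7* (+/−) XEN-like cells. *Ankrd1* was lowest in *Sox7* (−/−) ES cells and highest in *Sox7* (+/−) XEN-like cells, with a value of 81.4% in *Sox7* (+/−) ES cells next to 81.1% in *Sox7* (−/−) XEN-like cells. *Ctgf* had the order *Sox7* (−/−) ES at 470.0% ± 16.3, *Sox7* (+/−) ES at 1918% ± 27.1, *Sox7* (−/−) XEN-like at 2328% ± 153 and *Sox7* (+/−) XEN-like at 12180.5% ± 5613.

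These shapes showed in the correlations between members over the 12 arrays, which share 4 group means and are given as a description. The closest pair was *Cyr61* and *Cnn2* (r = 0.996), followed by *Tagln* and *Cnn1* (0.981), *Cnn1* and *Tpm1* (0.969), *Cyr61* and *Ankrd1* (0.958) and *Acta2* and *Tagln* (0.957). *Ctgf* and *Acta2*, the readouts usually named first for Yap and for Srf, had r = −0.37, and the lowest pair was *Tpm2* and *Myl9* (−0.69). After the group means were taken away, these values changed for several pairs. *Acta2* and *Tagln* had r = 0.92, *Tagln* and *Cnn1* 0.89 and *Cyr61* and *Ankrd1* 0.71, while *Cyr61* and *Cnn2* had 0.27, *Cnn1* and *Tpm1* −0.63 and *Ctgf* and *Acta2* 0.80. The *Sox7* (+/−) XEN-like arrays weigh most in pairs of *Ctgf*, *Acta2*, *Tagln* and *Cnn1*. Their log2 SD was 0.83, 0.71, 0.38 and 0.32 there and at most 0.23 in the other groups. For *Ankrd1* it was 1.10 there and 0.72 in *Sox7* (−/−) ES cells, where signal was not well above background. Among the 18843 genes outside the lists, *Prss23* (0.991), *S100a6* (0.985) and *Col2a1* (0.982) were most like *Acta2* over the 12 arrays, and *Rufy2* (0.989), *LOC100862557* (0.986) and *Arhgap31* (0.984) most like *Ctgf*.

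*Tpm1* was covered by 5 probes and they did not tell the same story. The gene makes many transcripts by alternative promoters, exons and 3′ ends, so the first 30 bases of each probe are shown to tell them apart, 5′ to 3′, with their mm9 positions on the minus strand of chromosome 9 and, in capitals, the 16 bases that 2 overlapping probes share:
A_55_P2187038, chr9:66875826-66875855: ccttagggccaggcACAGACTGCTTTCTAT
A_55_P2187043, chr9:66875812-66875841: ACAGACTGCTTTCTATtgtacagaagcaat
A_55_P2032192, chr9:66871196-66871225: gaaaaccttagtatgcaccagatgctggat
A_55_P2078680, chr9:66880304-66880333: ggaagaacagttaagaataatggatcagac
A_55_P2187053, chr9:66872161-66872190: gagggctgcctgcctggcccgtgtttccct

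Both overlapping *Tpm1* probes fell with Dex in *Sox7* (+/−) cells, with log2 differences of −1.10 for the brightest and −1.03 for A_55_P2187043, which read 1361, 1474 and 1511% before and 670.0, 691 and 762% after. A_55_P2032192 and A_55_P2078680 differed by −0.06 and −0.03 and were not called. A_55_P2187053 rose, from 241, 225 and 257% to 659, 676 and 522% (1.35 ± 0.13). A test of each probe against the mean of the other probes of its gene gave adjusted p of 2.19e-06, 6.46e-06 and 1.52e-05 for the brightest probe, A_55_P2187043 and A_55_P2187053, and 0.298 and 0.144 for the other two, where 17.2% of the 11930 probes of genes with several tested probes passed 0.05. In *Sox7* (−/−) cells the overlapping *Tpm1* probes differed by 0.09 and 0.10 and were not called, while A_55_P2032192, A_55_P2078680 and A_55_P2187053 rose by 1.29, 1.36 and 1.82. In ES cells all 5 probes were lower in *Sox7* (−/−) cells, with log2 differences of −1.25, −1.19, −1.22, −1.08 and −0.37, the last below 2-fold. The difference of the responses, in the same order of probes, was 1.19, 1.14, 1.35, 1.39 and 0.47. The last, for A_55_P2187053, was not called (adjusted p = 0.0809 in limma). The fall of *Tpm1* in *Sox7* (+/−) cells is thus a value of 2 overlapping probes, and with the mean of all its probes it was −0.17. The 2 probes of *Tpm2* had the same sign in each of the 5 comparisons but not the same size, with −0.30 and −0.08 between XEN-like cells and 0.36 and 0.71 for the response difference, where the second probe passed an adjusted p under 0.05 (0.0112) below 2-fold, and the 2 probes of *Cnn2* had the same signs and calls throughout. No genome sequence of the probes' build was used here, so exons were not assigned.

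**Figure D4:**
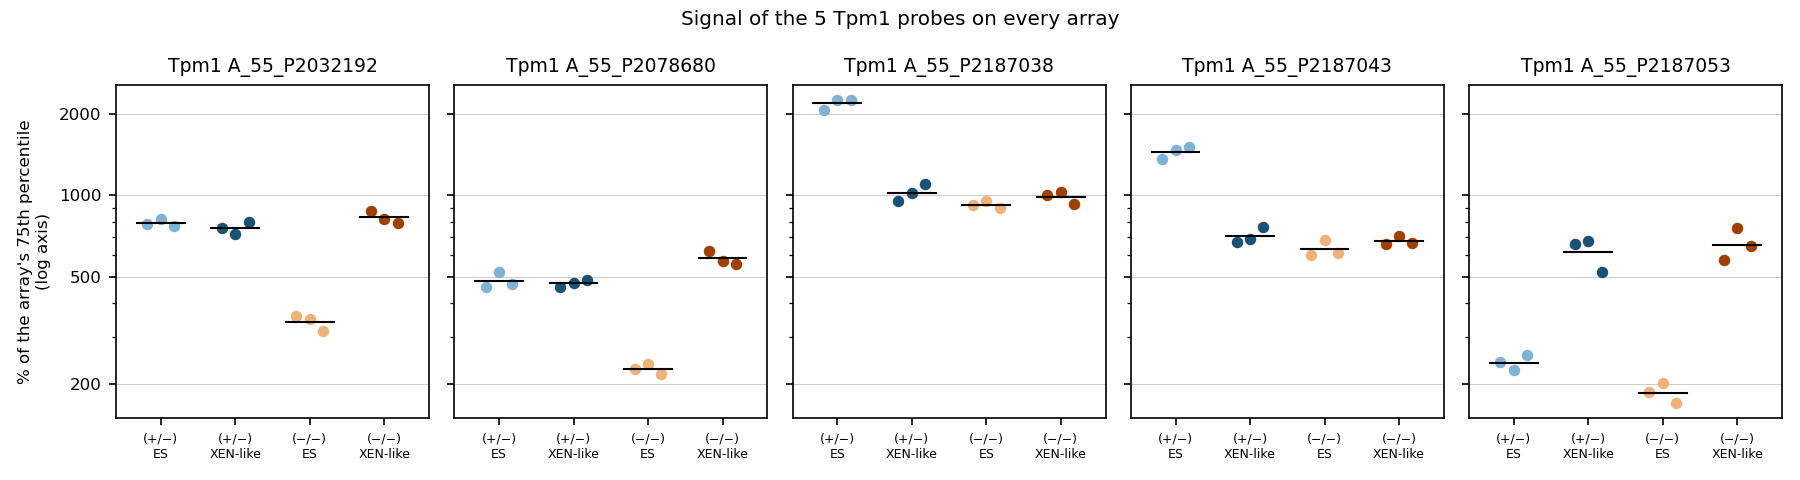
Signal of the 5 *Tpm1* probes on the 12 arrays as a percentage of the array's 75th percentile (shared log axis). Points are arrays and bars are means on the log scale (n = 3): all 5 probes have their lowest mean in *Sox7* (−/−) ES cells, A_55_P2187038 and A_55_P2187043 are highest in *Sox7* (+/−) ES cells, and A_55_P2187053 is higher in the XEN-like cells of both genotypes.

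Factors that act on these genes were read in the same way. Of 11 tested factors and cofactors 3 rose and none fell in *Sox7* (+/−) cells, where 11.0% of all tested probes rose, and 4 rose and none fell in *Sox7* (−/−) cells, where 14.6% did. *Mkl1* rose 2.83-fold in *Sox7* (+/−) cells and 2.91-fold in *Sox7* (−/−) cells (SE 0.06 on the log2 scale for both), from 550.5 to 655% on the 6 ES arrays to 1591 to 1839% on the 6 XEN-like arrays. *Srf* itself rose by 1.08 ± 0.08 and 1.61 ± 0.08, and the first of these slipped below 2-fold under 5 other scalings or corrections of background (0.59 to 0.998). *Yap1* read 3087 to 3434% on the ES arrays and 4094 to 5562% on the XEN-like arrays, and differed by less than 2-fold in each of the 5 comparisons, as did *Mkl2*, *Wwtr1*, *Tead1*, *Tead2* and *Tead4*.

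*Myocd*, the cofactor best known from smooth and cardiac muscle, was not well above background on any ES array and read 60.7, 55.0 and 39.8% in *Sox7* (+/−) XEN-like cells, at least 7.79-fold higher than in the ES cells of that genotype (adjusted p = 5.8e-05). It read 7.68, 6.37 and 8.82% in *Sox7* (−/−) XEN-like cells, well above background on 1 of 3 arrays. The genotypes differed by −2.76 ± 0.43 in XEN-like cells (adjusted p = 0.00112). The rise in *Sox7* (−/−) cells (1.15, adjusted p = 0.0393) was lost under 16 of the alternatives, with log2 differences from 0.31 to 1.27, and the difference of the responses (adjusted p = 0.0194, its size resting on values below background) with the slide as a block (adjusted p = 0.0827). In ES cells 4 of the 11 factors were lower in *Sox7* (−/−) cells at an adjusted p under 0.05, where 16.9% of all tested probes were. *Wwtr1* was higher there by the same measure (0.43, adjusted p = 0.0102), below 2-fold. *Srf* (−0.43), *Tead1* (−0.46) and *Mkl1* (−0.19) differed by less than 2-fold, and *Tead3*, not well above background there, was at least 2.62-fold lower (adjusted p = 0.00115, and 0.0863 with the slide as a block). It rose there at least 5.06-fold with Dex (adjusted p = 2.3e-05), and the difference of its responses was called (adjusted p = 0.00307), with a size that rests on values below background.

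Other genes of both branches were read from lists of named genes, chosen with earlier results of these data known. Of 23 tested further targets of the actin-dependent branch of Srf, 6 rose and 2 fell in *Sox7* (+/−) cells, where 11.0% of all tested probes rose and 14.0% fell. In *Sox7* (−/−) cells 8 rose and 2 fell, where 14.6% of all tested probes rose and 14.2% fell. In ES cells none of the 23 was called higher and 7 were called lower in *Sox7* (−/−) cells, with a median of −0.55, where 1.95% of all tested probes were higher and 6.66% lower. Of 17 tested further Yap targets, 4 rose and 4 fell in *Sox7* (+/−) cells, and 7 rose and 3 fell in *Sox7* (−/−) cells, beside the same shares of all tested probes. In ES cells none was called higher and 6 were called lower in *Sox7* (−/−) cells, with a median of −0.63. Of 5 tested targets of the other Srf branch, which uses ternary complex factors, 1 was lower there. Of 12 Hippo kinases and upstream regulators 1 was lower, a share near that of all tested probes.

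The largest rises among these genes with Dex were those of *Filip1l*, a filamin-interacting protein, by 3.73 ± 0.18 in *Sox7* (+/−) cells and by 4.93 ± 0.18 in *Sox7* (−/−) cells. *F3* rose by 2.57 ± 0.32 and 3.87 ± 0.32, *Ccdc80* by 2.90 ± 0.27 in *Sox7* (+/−) cells, and *Crim1*, a transmembrane protein with cysteine-rich repeats, by 3.23 ± 0.17 in *Sox7* (−/−) cells. The largest falls were those of *Igfbp3*, too dim to measure after Dex (at least 5.74-fold for the *Sox7* (+/−) genotype, at least 1.53-fold for the other), and of *Nt5e*, the ectonucleotidase CD73 (−3.88 ± 0.21 and −3.52 ± 0.21). *Egr1*, an immediate early gene, fell by 2.54 on the log2 scale in *Sox7* (+/−) cells, and *Des*, the muscle intermediate filament desmin, by 2.62 in *Sox7* (−/−) cells. Rises and falls thus both occurred among Yap targets.

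Between the genotypes, the lowest in *Sox7* (−/−) ES cells were *Ccdc80* (at least 2.64-fold lower), *Crim1* (−2.66 ± 0.17) and *Igfbp3* (−2.24 ± 0.23). In XEN-like cells *Fjx1*, a Golgi kinase that acts upstream of Hippo signalling in flies, was higher in *Sox7* (−/−) cells by 2.38 ± 0.11, *Amot*, a junction protein that binds Yap, by 1.82 ± 0.11 and *Nt5e* by 1.27 ± 0.21, while *Ccdc80* (−3.32 ± 0.27), *Cald1* (caldesmon, −1.68 ± 0.12) and *Arhgap22* (−1.37 ± 0.17) were lower. *Fjx1* read 219.8, 216 and 214% in *Sox7* (+/−) ES cells, 119, 100.1 and 86.0% in their XEN-like cells, 207, 195 and 184% in *Sox7* (−/−) ES cells and 508, 575 and 501% in their XEN-like cells. Its response differed by 2.54 ± 0.16 between the genotypes, and that of *Amot* by 2.32 ± 0.16. The difference was also called for *Fos*, an immediate early gene, but has no measured size: no array of *Sox7* (+/−) XEN-like or of *Sox7* (−/−) ES cells had *Fos* well above background.

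**Figure D5:**
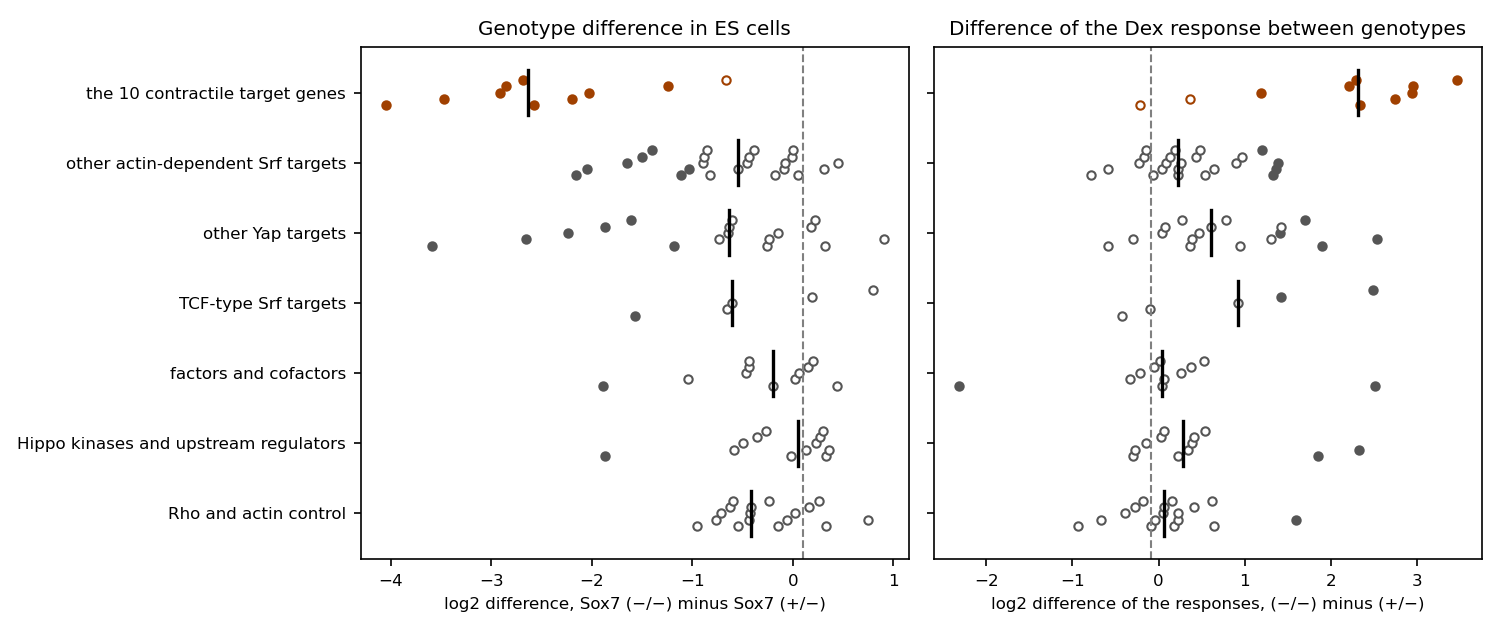
Log2 difference between *Sox7* (−/−) and *Sox7* (+/−) ES cells (left, x axis) and difference of the Dex responses (right, x axis) for each tested gene of the set and of the other lists (y axis). Each point is a gene, filled where called, short bars are list medians, and the dashed line is the median of all tested probes: the 10 contractile target genes have medians of −2.63 and 2.31, and the other lists have medians between −0.63 and 0.05 on the left.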

How the data were processed

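RNA for 12 arrays had been labelled with Cy3 and hybridized by the authors to single-colour Agilent SurePrint G3 mouse arrays. The intensity values deposited for each array are Agilent Feature Extraction 10.7.3.1 output (version per the labels). That software had subtracted background and detrended each array, with no scaling from array to array. A table of intensity values deposited for the whole series lay within 0.498% of the mean spot signal and is neither background-subtracted nor scaled. Flag columns of the deposited files, with other values such as the slide and the well-above-background flag, were used for filters.

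Processed signals were divided by their array's 75th percentile and put on the log2 scale. Control spots and outlier spots (at most 190 per array) were dropped and the 59305 remaining spots averaged by probe. A probe was tested where some group had it well above background on its 3 arrays (25899 of 55681 probes) with limma 3.58.1 in R 4.3.3, in 1 fit of 12 arrays with 1 mean per group, and Benjamini-Hochberg adjustment within each of the 5 comparisons. A gene was read by its brightest tested probe. The procedure was tested on simulated data. The number of arrays limits the precision.

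The members, gene lists and tests were chosen with earlier results of these data known. Named were all members, *Srf*, *Mkl1*, *Mkl2*, *Myocd*, *Yap1*, *Wwtr1* and *Tead1* to *Tead4*, and, of other listed genes, up to 3 of the largest called rises and 3 of the largest called falls in each comparison. Arrays of a group had correlations of 0.982 to 0.996. Deviations from the group means correlated at −0.051 to 0.126 between same-numbered arrays, and no pairing was assumed. The alternatives were normexp background correction (offset 50), quantile normalization, scaling by the median of bright probes or by 7 spike-in controls, use of the deposited table, other filters, an intensity trend, fewer groups in the fit, no minimum fold, the mean of all probes, replicate and slide blocks, single slides and leaving out each array. Averaging the *Sox7* (+/−) ES arrays into 1 sample was added after the data were seen. Promoter windows came from RefSeq (GRCm38.p6), and probe positions are those of the array files (mm9).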

Additional observations from a re-analysis of the deposited data

Results flagged for a closer look

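For 8 of the 10 members the Dex response differed between the genotypes by the test of the difference itself (limma, *Sox7* (−/−) response minus *Sox7* (+/−) response, log2, adjusted p under 0.05 and over 2-fold, 3 arrays a group). Of all tested probes 6.63% were called higher by this test. The differences were 3.46 for *Tagln*, 2.96 for *Myl9*, 2.94 for *Acta2*, 2.74 for *Cnn1*, 2.34 for *Ankrd1*, 2.29 for *Cyr61*, 2.20 for *Cnn2* and 1.19 for *Tpm1*. All 8 were already called lower in *Sox7* (−/−) ES cells without Dex. Of these genes only *Ankrd1* was called between the genotypes in XEN-like cells. In the test of response differences 5 of 5 tested visceral endoderm markers were called higher (median 3.61). So were the 3 tested genes of the trophectoderm list, *Krt8*, *Krt18* and *Cdx2* (median 3.02). Of the parietal endoderm markers 1 of 6 was called higher, and the ES cell and fibroblast lists each had 1 called higher and 1 lower. No extraembryonic endoderm, smooth muscle or cardiac muscle marker was called. The part of these markers in the member values was not tested. No slide held all 4 groups, so none of the member differences has a value within a slide, and with the slide as a block 7 of the 8 were called, the exception being *Ankrd1* (2.46, adjusted p = 0.0949). The test of *Ankrd1* also rests on *Sox7* (−/−) ES arrays that were not well above background. The value of *Tpm1* is that of its brightest probe, and its probe A_55_P2187053 was not called (0.47, adjusted p = 0.0809).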

How the results depend on the processing

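Every called member difference kept its direction under each alternative run. The number of members called stayed within 1.5 times its value in 122 of 132 recalculations, and 10 that did not were all of the genotype difference in XEN-like cells, where 2 members were called. It was 1 with spike-in scaling, with only probes well above background on all arrays, with only the XEN-like arrays in the fit, with the slide as a block, on slide 2 alone, and with the *Sox7* (+/−) ES arrays averaged, it was 6 with no minimum fold, and between 1 and 2 when each array was left out in turn. In the other comparisons leaving out each array gave 7 to 8, 6, 9 and 7 to 8 called members, in the order of the *Sox7* (+/−) response, the *Sox7* (−/−) response, ES cells and the difference of responses. The replicate block moved no count of called members (8, 6, 2, 9 and 8). The rule of 1.5 times bears harder on small counts. Of 10 members, a count of 8 or 9 cannot rise past it, while a count of 2 moves when 1 call is lost. Where the moved counts fell was thus partly set by the rule. The deposited table called 3 members in XEN-like cells, *Acta2* being added. The signs that turned all belonged to differences that were not called, and the cause was not tested. In *Sox7* (+/−) cells the response turned with spike-in scaling to −0.19 for *Cyr61* and −0.25 for *Cnn2*, and in the deposited table to −0.15 and −0.23. In *Sox7* (−/−) cells the response of *Tpm1* turned to −0.014 with quantile normalization and −0.036 with the median of bright probes, and that of *Cnn1* to 0.030 with the slide as a block and 0.030 on slide 1 alone, with a range of −0.14 to 0.078 when each array was left out. In XEN-like cells the genotype difference turned with spike-in scaling to 0.13 for *Cnn1* and 0.19 for *Tpm1*, in the deposited table to 0.013 for *Cyr61*, 0.30 for *Cnn1*, 0.054 for *Cnn2*, 0.38 for *Tpm1* and 0.13 for *Tpm2*, and for *Tpm1* to 0.031 with normexp and 0.083 with the mean of all its probes, while leaving out each array gave −0.23 to 0.070 for *Cnn1*. The difference of responses of *Ctgf* turned to 0.18 with spike-in scaling and 0.21 in the deposited table, and lay between −0.70, without *Sox7* (+/−) XEN-like replicate 3, and 0.023 when each array was left out. The median of all tested probes moved with spike-in scaling from 0.00083 to 0.25 between XEN-like cells, from 0.10 to −0.06 between ES cells and in the deposited table to 0.34 between XEN-like cells and −0.23 for the *Sox7* (+/−) response. Signal was not well above background for *Ankrd1* in *Sox7* (−/−) ES cells and for *Myocd* in ES cells of both genotypes, which limits the values that rest on those groups. *Ankrd1* also lost calls between groups where it was bright, and the cause was not tested.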
